A study of Homo sapiens with 22 samples.

Results

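Gene ends that carried both H3K4me3 and H3K27me3 were sought in CHLA10, an established Ewing sarcoma cell line; this tumour of bone and soft tissue is driven by the fusion protein EWS-FLI1. The comparison used the 2 H3K4me3 and the 2 H3K27me3 libraries of this line, 4 of the 22 libraries of a series whose title concerns EWS-FLI1, HOXD13 and the plasticity of Ewing sarcoma cells. The marks were mapped by automated CUT&RUN, in which an antibody brings micrococcal nuclease to chromatin and the released fragments are sequenced. All 4 libraries came from cells labelled shNS, grown in serum-containing medium with no treatment named, and they differed in the antibody alone as far as the labels say. Each gene boundary on chromosomes 1 to 22 was given a window of 1 kb on each side, and a mark was counted as present when both of its libraries had a called peak overlapping that window by at least 1 bp. The 19122 protein-coding genes gave 38244 such gene ends, and 435 of them (1.14%) carried both marks. H3K4me3 alone was at 12859 ends (33.6%), H3K27me3 alone at 2228 (5.83%), and neither mark at 22722 (59.4%). The labels do not say whether the replicates were separate cultures, and with 2 libraries per mark no test over samples was run, so shares and counts are given for each library and described. Marks at 1 gene end were measured in separate libraries, so the same allele, the same cell and different cells of the culture cannot be told apart.

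H3K4me3 is laid down at promoters by SET1 and MLL complexes, and at CpG islands it is found at active and at poised genes alike. H3K27me3 is deposited by EZH2 within Polycomb repressive complex 2 and lies over silent developmental genes. Promoters that carry both, called bivalent, were described in embryonic stem cells, mostly at genes of transcription factors and signalling proteins that are silent until a lineage is chosen.

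The 250 bases before the start of 7 genes, 5′ to 3′ on the strand of the gene, show promoter sequence from each class with a mark. PAX6, SSTR2, HOXA7 and NKX2-2 carried both marks at the start. DDX56 was among the highest-scoring H3K4me3-only genes, and FGF3 and MUC12 were among the highest-scoring H3K27me3-only genes. Capitals mark each CpG, the dinucleotide that CpG islands are rich in. The sequences are from RefSeq (GRCh38.p14).
PAX6, chr11:31817962-31818211, minus strand, both marks: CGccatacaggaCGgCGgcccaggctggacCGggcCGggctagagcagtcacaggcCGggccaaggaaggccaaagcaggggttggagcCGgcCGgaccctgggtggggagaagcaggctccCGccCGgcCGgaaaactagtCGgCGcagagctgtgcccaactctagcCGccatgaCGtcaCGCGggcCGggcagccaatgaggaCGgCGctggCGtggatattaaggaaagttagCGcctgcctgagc
SSTR2, chr17:73164760-73165009, plus strand, both marks: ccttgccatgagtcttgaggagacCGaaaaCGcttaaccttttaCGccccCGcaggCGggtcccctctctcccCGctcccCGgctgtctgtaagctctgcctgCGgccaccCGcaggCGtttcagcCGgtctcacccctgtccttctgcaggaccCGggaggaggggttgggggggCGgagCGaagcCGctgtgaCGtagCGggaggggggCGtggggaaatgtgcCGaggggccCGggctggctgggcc
HOXA7, chr7:27156676-27156925, minus strand, both marks: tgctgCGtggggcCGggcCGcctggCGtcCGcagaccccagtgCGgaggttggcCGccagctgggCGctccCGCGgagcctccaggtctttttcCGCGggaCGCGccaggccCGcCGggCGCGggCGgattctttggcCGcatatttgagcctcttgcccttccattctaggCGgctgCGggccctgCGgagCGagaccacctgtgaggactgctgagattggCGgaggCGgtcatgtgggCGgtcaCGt
NKX2-2, chr20:21522690-21522939, minus strand, both marks: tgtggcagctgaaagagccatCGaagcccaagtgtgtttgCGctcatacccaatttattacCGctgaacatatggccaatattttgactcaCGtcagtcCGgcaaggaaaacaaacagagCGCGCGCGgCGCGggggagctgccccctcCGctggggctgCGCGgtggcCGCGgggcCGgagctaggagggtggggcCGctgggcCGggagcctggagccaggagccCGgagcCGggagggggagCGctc
DDX56, chr7:44573909-44574158, minus strand, H3K4me3 only: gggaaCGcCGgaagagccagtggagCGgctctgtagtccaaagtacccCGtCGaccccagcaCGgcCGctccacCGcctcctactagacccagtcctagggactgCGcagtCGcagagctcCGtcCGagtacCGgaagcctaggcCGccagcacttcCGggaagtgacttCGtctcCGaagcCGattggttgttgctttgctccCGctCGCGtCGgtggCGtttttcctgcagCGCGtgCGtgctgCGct
FGF3, chr11:69819417-69819666, minus strand, H3K27me3 only: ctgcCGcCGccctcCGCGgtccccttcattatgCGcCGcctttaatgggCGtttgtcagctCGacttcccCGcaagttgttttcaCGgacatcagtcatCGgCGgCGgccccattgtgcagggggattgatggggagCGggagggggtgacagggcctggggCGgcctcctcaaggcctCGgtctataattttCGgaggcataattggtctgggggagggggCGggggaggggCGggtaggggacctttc
MUC12, chr7:100969315-100969564, plus strand, H3K27me3 only: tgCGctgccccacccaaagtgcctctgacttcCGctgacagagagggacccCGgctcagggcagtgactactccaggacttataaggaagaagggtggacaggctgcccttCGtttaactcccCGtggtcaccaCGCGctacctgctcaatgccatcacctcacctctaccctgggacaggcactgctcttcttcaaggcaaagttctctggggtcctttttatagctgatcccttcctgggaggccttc

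The printed stretches held 22 CpG for PAX6, 20 for SSTR2, 28 for HOXA7 and 22 for NKX2-2. DDX56, an RNA helicase gene of ribosome assembly, had 27. The H3K27me3-only genes differed from each other, with 19 CpG before FGF3, a secreted growth factor gene of inner ear development, and 7 before MUC12, a membrane mucin gene.

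The number of both-mark ends depended on how many libraries had to have a peak. In the 4 pairings of 1 H3K4me3 with 1 H3K27me3 library, between 618 and 650 ends carried both, against 435 when all 4 libraries were required. A further 254 ends had H3K4me3 in both libraries and H3K27me3 in 1, 126 had H3K27me3 in both and H3K4me3 in 1, and 51 had 1 library of each. The H3K27me3 peaks of those 254 ends had medians of 3288 bp in replicate 1 and 3337 bp in replicate 2, near the medians of their lists (3484 and 3439 bp). The H3K4me3 peaks seen in 1 library had medians of 378 and 328 bp. At the edge of the rule, NEUROD2, a neuronal bHLH factor gene, was inside with as little as 4 bp of a peak in its window, and FOXF1, a forkhead factor gene of lung and gut mesenchyme, was outside with an H3K27me3 peak 126 bp beyond the window in the farther library.

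The 4 libraries differed in list length and in repeat. The H3K4me3 lists held 20633 and 20421 peaks with medians of 1486 and 1538 bp, and 83.3% and 83.8% of the peaks overlapped a peak of the other replicate. The H3K27me3 lists held 38450 and 40935 peaks with medians of 3484 and 3439 bp, and 70.6% and 66.1% overlapped the other replicate. Since the lists give peaks without reads, depth is unknown, and an end without a peak is an end without a call. Among 38 genes known to be activated by EWS-FLI1, 35 had H3K4me3 at an end, against 64.4% of all genes. H3K4me3 was at an end of 6 of 19 blood cell genes, 3 of 16 endothelial genes, 4 of 20 epithelial genes, 10 of 17 neural crest and melanocyte genes, 2 of 15 liver genes and 0 of 16 muscle genes. These lists rest on a chromatin mark and not on RNA.

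The share of ends with H3K27me3 was lower where H3K4me3 was present. H3K27me3 was at 435 of 13294 H3K4me3 ends (3.27%, exact 95% Clopper-Pearson interval 2.98 to 3.59) and at 2228 of 24950 ends without H3K4me3 in both libraries (8.93%, 8.58 to 9.29). These intervals cover counting error only. Single H3K27me3 libraries had a peak at 8.86% and 8.91% of all ends. The shares by pairing were 4.54% to 4.76% at H3K4me3 ends and 11.2% to 11.3% at the others, so all 4 pairings had the same order. Seen from the other mark, 16.3% of H3K27me3 ends carried H3K4me3.

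Both-mark ends were mostly gene starts. Strand was known for 338 of the 435, and 330 of those (97.6%) were starts, such as those of PAX6 and SSTR2, and 8 were far ends. For comparison, 90.5% of H3K4me3-only ends and 52.5% of H3K27me3-only ends of known strand were starts. At gene starts, H3K27me3 was at 330 of 9883 with H3K4me3 (3.34%) and at 898 of 5217 without it (17.2%). The other end of a both-mark gene, taken without regard to strand, was mostly bare of both marks. Of 431 genes with a both-mark end, the other end carried neither mark in 325 (75.4%) and H3K27me3 alone in 96 (22.3%). It carried H3K4me3 alone in 6 and both marks in 4. Among those 96 were the factor genes EOMES, FOXL2 and EVX1. At FOXL2 the same H3K27me3 peak, of 10543 bp in replicate 1 and 25485 bp in replicate 2, reached both ends of the gene. FEZF2, a factor gene of the forebrain, was 1 of the 4 with both marks at both ends.

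The both-mark genes included many long ones. Their median length from boundary to boundary was 70.1 kb (quartiles 19.6 and 192.1 kb), against 30.2 kb for H3K4me3-only genes, 13.6 kb for H3K27me3-only genes and 24.5 kb for all genes. A separate group of 112 genes (0.586%) had H3K4me3 alone at one end and H3K27me3 alone at the other. Of the 80 with known strand, 67 had H3K4me3 at the start and 13 had H3K27me3 there. FOXF1, POU4F1, INSM1, WNT6 and HOXB9 belonged to this group.

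The stretches covered by peaks of all 4 libraries were short. A stretch of this kind reached into the window of 252 of the 435 both-mark ends (57.9%), with a median of 418 bp (quartiles 206 and 740 bp) and a range from 9 to 1873 bp. Over chromosomes 1 to 22 there were 489 such stretches with 234.5 kb in all, which is 0.739% of the 31.7 Mb under H3K4me3 and 0.212% of the 110.9 Mb under H3K27me3 in both libraries. The longest at a gene end was at PCDH1, a protocadherin of epithelial adhesion, at chr5:141877457-141879329 across the gene start.

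The next longest stretches belonged to genes of several kinds. SSTR2, the somatostatin receptor gene, had 1798 bp at chr17:73164462-73166259, and KCTD1, which encodes a repressor of AP-2 factors, had 1793 bp. BARHL2, a homeobox factor gene of the nervous system, had 1741 bp, and BCL11A, the repressor gene that silences fetal globin, 1679 bp. ARHGAP20, a GTPase-activating protein gene, had 1669 bp, and VGLL2, a TEAD cofactor gene of muscle, 1586 bp. LRP2, the endocytic receptor gene megalin, had 1559 bp, PTGS2, the inducible cyclooxygenase gene, 1496 bp, and TWIST2, a mesenchymal bHLH factor gene, 1390 bp. The shortest were at CSMD2 (9 bp), CCBE1 (13 bp), a gene of lymphatic vessel growth, LINC02798 (13 bp), CR2 (15 bp), the complement receptor gene of B cells, and BMPR1B (22 bp), a BMP receptor gene.

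The single libraries show what those stretches are made of. At PCDH1 the H3K4me3 peaks were 1890 and 1903 bp long with 9.09-fold and 5.50-fold enrichment, and the H3K27me3 peaks 22596 and 9165 bp with 5.44-fold and 4.74-fold. At SSTR2 the H3K4me3 peaks were 1798 and 2017 bp at 4.38-fold and 4.34-fold, and the H3K27me3 peaks 11139 and 7703 bp at 4.13-fold and 4.63-fold. In both genes H3K4me3 lay wholly inside H3K27me3 in every pairing. ARHGAP20 had the same layout with much stronger H3K4me3, 24.9-fold and 23.9-fold over 1669 and 1875 bp, inside H3K27me3 peaks of 13548 and 10674 bp. BARHL2 differed, with broad H3K4me3 peaks of 4038 and 4129 bp that overlapped H3K27me3 peaks of 7035 and 13678 bp in part.

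The layout of the peaks was counted over all both-mark ends. In the 4 pairings, the H3K4me3 peak lay inside the H3K27me3 peak at 41.6% to 46.0% of the ends, overlapped it in part at 34.3% to 35.6%, and stood apart from it at 19.3% to 22.8%. Where peaks touched, the median shared length was 588 to 659 bp, and where they stood apart the median gap was 274 to 334 bp. At 130 ends the H3K4me3 peak was inside in all 4 pairings, at 67 it overlapped in part in all, at 34 it stood apart in all, and at 204 the pairings differed.

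The layouts went with different peak sizes. Where H3K4me3 lay inside in all pairings, its median length was 695 and 754 bp in the 2 libraries and that of H3K27me3 was 10990 and 10370 bp. Where the overlap was partial, H3K4me3 had medians of 1742 and 1750 bp and H3K27me3 of 4358 and 4739 bp. A short peak lies inside a long one more readily, so the layouts describe these sizes and are not independent of them. PAX6, the eye and forebrain factor gene, was of the first kind, with H3K4me3 of 1032 and 2133 bp in H3K27me3 of 23381 and 24217 bp. UNC5C, a netrin receptor gene, was of the second, with H3K4me3 of 2960 and 2427 bp beside H3K27me3 of 4358 and 5661 bp. DLL1, a Notch ligand gene, was of the third, with H3K4me3 of 739 and 1021 bp at 10.5-fold and 12.1-fold and H3K27me3 of 4457 and 3248 bp, and no shared base in any pairing.

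H3K4me3 peaks were shorter and weaker at both-mark ends than at H3K4me3-only ends. Median lengths were 920 and 985 bp against 2356 and 2426 bp, which is 2.56 and 2.46 times as long at H3K4me3-only ends in replicates 1 and 2. Median fold enrichment was 9.03 and 8.29 against 23.9 and 21.9. The quartile ranges did not overlap in either library, with the upper quartile of the both-mark ends at 1458 and 1462 bp and the lower quartile of the H3K4me3-only ends at 1712 and 1761 bp. H3K4me3 longer than 2 kb was at 10.3% and 8.51% of both-mark ends and at 63.4% and 66.0% of H3K4me3-only ends.

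H3K27me3 peaks did not separate in this way. Their median lengths were 6401 and 5940 bp at both-mark ends and 6580 and 6701 bp at H3K27me3-only ends, and their median fold enrichments 4.33 and 4.54 against 4.26 and 4.47. The quartile ranges overlapped almost wholly. The genes with the highest scores of each single-mark class show the ends of the scale. FGF3 had H3K27me3 peaks of 26289 and 21439 bp at 6.88-fold and 7.45-fold, and NEUROG3, a bHLH factor gene of endocrine pancreas, of 19074 and 39383 bp at 6.23-fold and 6.04-fold. DDX56 had H3K4me3 at 137-fold and 106-fold over 2158 and 2280 bp.

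**Figure D1:**
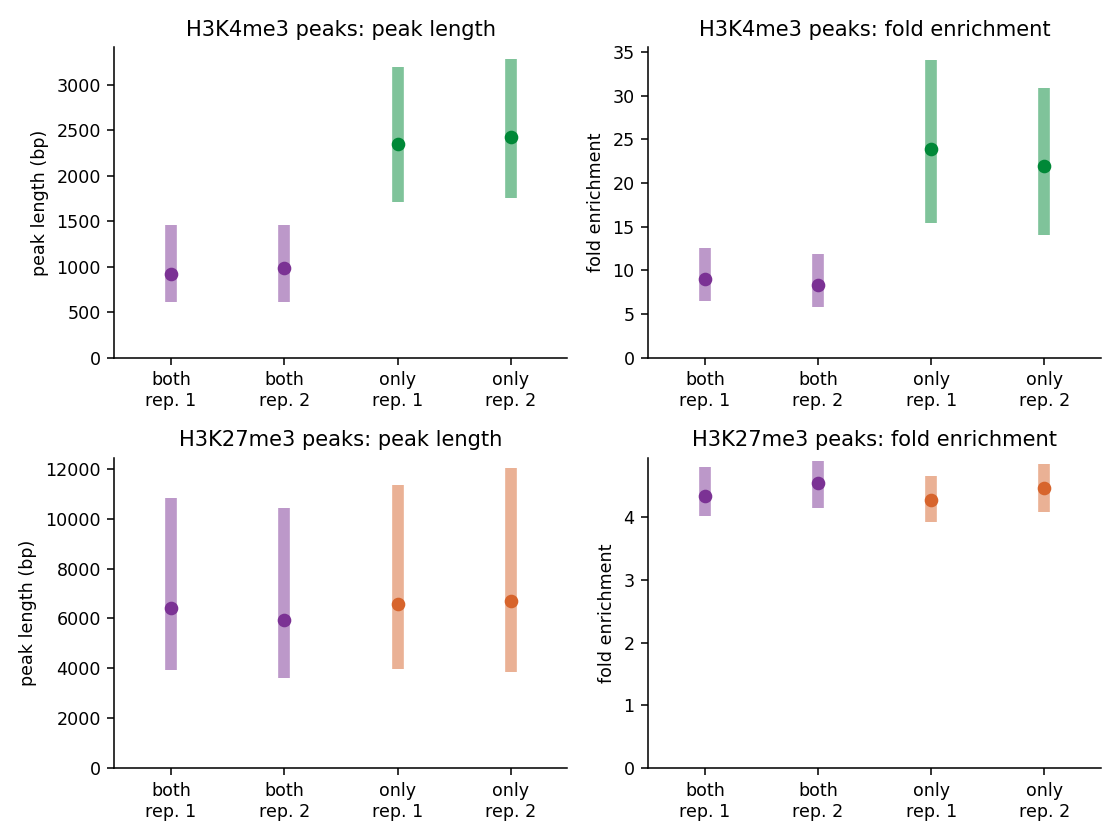
Peak length in bp (left) and fold enrichment over the caller's background (right) of H3K4me3 (top) and H3K27me3 (bottom) at both-mark ends and at ends with that mark alone, in each replicate. Points are medians and bars run from the lower to the upper quartile; the H3K4me3 bars of the classes do not overlap, and the H3K27me3 bars do.

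Among all H3K4me3 peaks, at genes or not, the longer ones touched H3K27me3 less often from 500 bp upward. Peaks of up to 500 bp did so at 6.76% to 7.45%, below those of 500 to 1000 bp in each pairing. Of peaks between 500 and 1000 bp, 7.59% to 9.02% touched an H3K27me3 peak over the 4 pairings, of those between 2000 and 3000 bp 1.47% to 1.89%, and of the 527 and 588 peaks of 5000 bp and more 0%, which allows up to 0.569% and 0.510% from counting. Over all lengths the share was 4.62% to 4.72%.

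Both-mark ends carried no H3K27ac, the acetylation of active promoters and enhancers. H3K27ac was at 0 of 435 both-mark ends in either replicate, which allows a share of up to 0.690%. H3K4me3-only ends carried it at 43.0% and 29.0%, and all gene ends at 16.9% and 11.3%. H3K27me3-only ends carried it at 1 and 0 of 2228. Since H3K4me3 was weak at both-mark ends, 476 H3K4me3-only ends were taken whose H3K4me3 peaks scored at or below the both-mark medians (−log10 q of 12.7 and 11.0). Of these, 12.2% (9.38 to 15.5) and 9.66% (7.16 to 12.7) carried H3K27ac. As background, acetylation and methylation use the same lysine 27, and a single histone tail can carry only one of them.

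H3K4me1, a mark of enhancers and of the flanks of promoters, was at 16 and 12 of the 435 both-mark ends (3.68% and 2.76%), against 2.05% and 1.87% of all ends. The intervals, 2.12 to 5.90 and 1.43 to 4.77, overlapped those of all ends (1.91 to 2.19 and 1.74 to 2.01) in both replicates. H3K27me3-only ends had 0.269% (0.0989 to 0.585) in each replicate, below both-mark ends. H3K4me3-only ends had 1.81% (1.59 to 2.06) and 1.63% (1.42 to 1.87), with overlap in replicate 2 alone. At 1 both-mark end, that of the connexin gene GJA5, H3K4me1 was called in both libraries. The weak H3K4me3-only ends carried it at 7.14% and 5.04%. HOXD13 peaks, from a single library of cells without the shNS label, were at 0.17% of all ends. They were at 0 of 435 both-mark ends, which allows up to 0.690%, so a difference was not detectable.

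**Figure D2:**
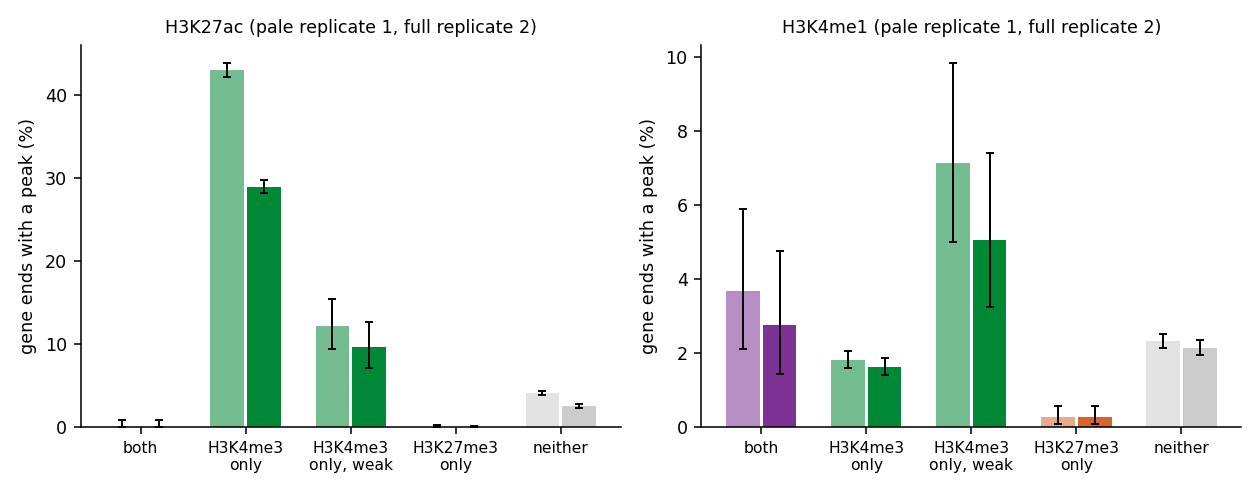
Share of gene ends with a called H3K27ac peak (left) or H3K4me1 peak (right) by class, in percent, with replicate 1 pale and replicate 2 in full colour and exact 95% intervals for counting error. Weak H3K4me3-only ends have peak scores at or below the medians of both-mark ends; H3K27ac was at 0 of 435 both-mark ends in each replicate.

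Among transcription factor genes, both-mark members were found in most families. Over all genes, 2.25% had both marks, 7.54% H3K27me3 alone and 61.5% H3K4me3 alone. The homeobox genes outside the HOX clusters had 20 of 124 with both marks (16.1%), 27 with H3K27me3 alone, 53 with H3K4me3 alone and 4 with the marks at opposite ends. Beside BARHL2, they included LBX1 (hindbrain and muscle precursors), EVX1 (spinal interneurons), EMX2 (forebrain and urogenital tract), MNX1 (motor neurons and pancreas), EN2 (midbrain) and ONECUT1 and ONECUT2 (liver and pancreas). LBX1 had H3K4me3 peaks of 1237 and 1604 bp inside H3K27me3 of 12595 and 15886 bp. EVX1 had 1124 and 1056 bp inside 9101 and 11072 bp. In both genes the 4-library stretch was as long as the shorter H3K4me3 peak, at 1237 and 1056 bp.

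The tissue bHLH factors had 8 of 46 with both marks (17.4%) and 13 with H3K27me3 alone. They included TWIST2, TCF24, ATOH1 (cerebellum and inner ear), OLIG1, FIGLA (oocytes), NEUROD2 and NEUROG2 (neurons). ATOH1 had H3K4me3 of 1128 and 1316 bp at 12.3-fold and 9.59-fold and H3K27me3 of 5655 and 14172 bp, with 486 bp in all 4 libraries. NEUROG1, NEUROG3, NEUROD1, OLIG2 and the muscle factor gene MYOD1 had H3K27me3 alone. Members of the OLIG and NEUROG families were thus in different classes.

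Forkhead factors had 5 of 48 with both marks (10.4%), FOXL2 (ovary), FOXQ1, FOXB2, FOXE1 (thyroid) and FOXI3. FOXL2 held a 1380 bp stretch, with H3K4me3 of 1415 and 1553 bp inside H3K27me3 of 10543 and 25485 bp. Developmental zinc finger factors had 5 of 49 (10.2%), SP5, SP8, FEZF2, WT1 (kidney and gonad) and INSM2. PAX6 was the 1 of 9 PAX genes with both marks, and PAX1, PAX2, PAX4 and PAX5 had H3K27me3 alone. SOX21 was 1 of 18 SOX genes, EOMES 1 of 16 T-box genes and GATA6 1 of 19 factors of heart and endoderm, a list in which GATA3, GATA4 and GATA5 had H3K27me3 alone.

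**Figure D3:**
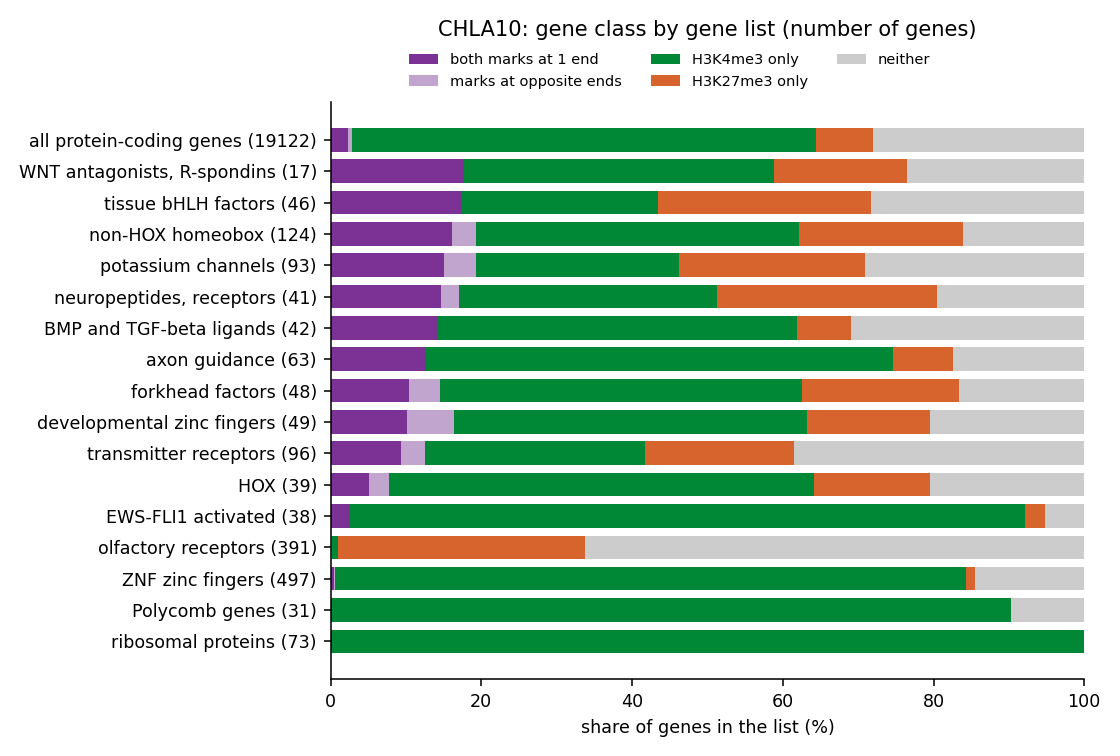
Share of the genes of each list, in percent, with both marks at 1 end, the marks at opposite ends, H3K4me3 only, H3K27me3 only or neither in CHLA10; the number of genes stands in brackets and the top bar is all 19122 protein-coding genes. Both marks were at 17.6% of WNT antagonists and R-spondins and at none of the ribosomal protein genes.

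The HOX genes split by cluster. Of 39 measured, 6 had H3K27me3 alone, 22 had H3K4me3 alone, and HOXB9 had the marks at opposite ends. All 6 were in the HOXA cluster on chromosome 7, which held 12 of the 13 H3K27me3-only HOX gene ends. HOXA7 carried both marks, with H3K4me3 of 843 and 908 bp at 10.5-fold and 9.34-fold inside H3K27me3 of 5247 and 6598 bp, with a shared stretch at chr7:27155852-27156691. HOXA4 and HOXA5 came close to the class, with H3K27me3 in both libraries and H3K4me3 of 401 and 535 bp in replicate 1 alone.

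The posterior end of the HOXA cluster lacked H3K27me3 calls. HOXA2 to HOXA6 and HOXA9 had H3K27me3 alone at 1 end or at both, and HOXA10 had neither mark at either end. Inside the HOXA10 gene, away from its end windows, each replicate had an H3K4me3 peak. Measured from the lower boundary of HOXA2, it lay at 73.16 to 73.84 kb in replicate 1 and 72.85 to 73.78 kb in replicate 2. The HOXA3 start was classed as neither, with H3K4me3 of 1468 bp and H3K27me3 of 2532 bp in replicate 1 alone. HOXA11 and HOXA13 had H3K4me3 alone at the start, of 1302 and 874 bp and of 3936 and 2112 bp. H3K27me3 resumed at EVX1. Of the 20 HOXB ends, 9 carried H3K4me3 alone, 10 neither mark and 1, at HOXB9, H3K27me3 alone. The 18 HOXC and 18 HOXD ends carried no H3K27me3, and H3K4me3 was at 9 and 5 of them. These ends are not all separate sites. HOXC4, HOXC5 and HOXC6 share 1 boundary and its peak, and the HOXD11 start and the HOXD12 far end share 1 peak. In HOXB, both ends of HOXB2 lay under 1 peak, as did both ends of HOXB13. HOXD13 had neither mark at its outermost RefSeq start. At its far end it had H3K4me3 of 7232 and 6897 bp at 26.2-fold and 35.9-fold and no H3K27me3. The HOXD12 start window beyond had no peak, so these H3K4me3 peaks reached back into the HOXD13 gene. Transcript starts inside the gene were not examined, so a promoter without H3K4me3 cannot be read from these classes. In A673, the other Ewing sarcoma line of the series, 7 HOXA ends carried both marks, those of HOXA11 and HOXA13 among them, and the other 15 carried H3K27me3 alone.

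**Figure D4:**
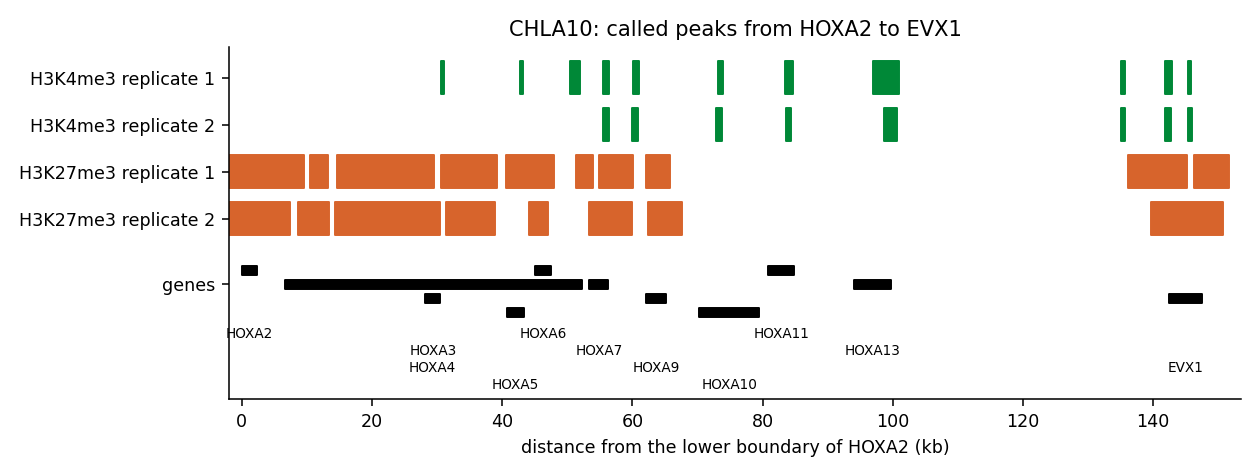
Called peaks of the 4 CHLA10 libraries from HOXA2 to EVX1, drawn to scale against the distance in kb from the lower boundary of HOXA2, with genes as black bars. H3K27me3 peaks end beyond HOXA9 in both replicates, and H3K4me3 lies within them in both replicates at HOXA7 and at EVX1.

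Secreted signalling proteins also held both-mark genes. BMP, GDF, activin and TGF-beta ligands and their antagonists had 6 of 42 (14.3%), BMP2, BMP6, GDF7, INHBB and the antagonists CHRDL2 and FST. BMP2 had H3K4me3 of 1422 and 1580 bp and H3K27me3 of 7698 and 11798 bp, with 1190 bp shared by all 4 libraries. WNT antagonists and R-spondins had 3 of 17 (RSPO2, SFRP5 and DKK3), WNT ligands 2 of 19 (WNT3 and WNT11), FGF ligands 2 of 20 (FGF10 and FGF19), and hedgehog and Notch genes 2 of 24 (DLL1 and DLL4). At WNT11, H3K4me3 was broad, with 4626 and 4614 bp, and it overlapped H3K27me3 of 4577 and 3031 bp in part. At WNT3 it was short and weak, with 186 and 354 bp at 3.89-fold and 3.84-fold.

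Ion channels, receptors and guidance molecules were counted next. Potassium channel subunits had 14 of 93 (15.1%) with both marks and 23 with H3K27me3 alone, and calcium and sodium channel subunits had 1 of 39 (2.56%, SCN4B) and 10. Neuropeptides and their receptors had 6 of 41 (14.6%), SSTR2, BDNF, TACR1, TACR3, CCKBR and VIPR2. BDNF, a neurotrophin gene, had H3K4me3 of 1101 and 1036 bp inside H3K27me3 of 15162 and 28544 bp. Axon guidance genes had 8 of 63 (12.7%), among them SEMA6D, UNC5A, UNC5C and ROBO3, and transmitter receptors 9 of 96 (9.38%), among them the glutamate receptor genes GRIA4, GRM3 and GRM7. GRIA4 had H3K4me3 of 1969 and 1909 bp overlapping H3K27me3 of 2672 and 2371 bp, with 1088 bp in all 4 libraries.

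The remaining lists ranged from no both-mark gene to shares above the 2.25% of all genes. Solute carriers had 9 of 344 (2.62%), ZNF zinc finger genes 2 of 497 (0.402%) and keratins 1 of 149 (0.671%). Collagens had 3 of 42 (7.14%; COL12A1, COL14A1 and COL15A1), cadherins 3 of 39 (7.69%) with PCDH1 among them, integrins 1 of 29 (ITGA11), and chemokines and interleukins 3 of 76 (CXCL3, IL7 and IL12B). No both-mark gene was found among 391 olfactory receptors, of which 128 had H3K27me3 alone, among 53 clustered protocadherins, or among 25 ETS factors, of which ERG, EHF and FEV had H3K27me3 alone. None was found among 73 ribosomal protein genes and 24 housekeeping genes, all of which had H3K4me3 alone, or among 38 cell cycle genes, of which 37 did. At the 2.25% of all genes, these lists of 24 to 73 genes would hold few both-mark genes, so having none does not set them apart.

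Genes of the marks themselves and of the tumour form short lists, in which a share near 2.25% would be at most 1 gene. All of EZH2, EED and SUZ12, the core of Polycomb repressive complex 2, had H3K4me3 at the start and no H3K27me3. H3K4me3 alone was the class of 28 of 31 Polycomb genes and of 17 of 18 H3K4 methyltransferase and demethylase genes, and none of the others had H3K27me3. None of 8 CDK inhibitor genes had both marks. Of 38 genes activated by EWS-FLI1, 34 had H3K4me3 alone, FEV had H3K27me3 alone and NKX2-2 had both marks. NKX2-2, a homeobox factor gene required for transformation in Ewing sarcoma, had H3K4me3 of 2293 and 1769 bp at 19.5-fold and 16.6-fold and H3K27me3 of 4127 and 5846 bp at 4.13-fold and 3.87-fold. The peaks overlapped in part in each pairing, but no stretch in all 4 libraries reached the window. Of 31 genes repressed by EWS-FLI1, 26 had H3K4me3 alone, 5 had neither mark and none had H3K27me3 at an end. Over all genes, 10.4% had H3K27me3 at an end. At that share, these short lists and the Polycomb list would hold few such genes, and the difference was not tested. The lists together held 3177 genes, of which 121 had both marks, and the other 310 both-mark genes were in no list.

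Chromosomes differed in the share of H3K4me3 ends with H3K27me3. It was 8.29% (16 of 193) on chromosome 18, where GATA6, KCTD1, ZNF521 and CCBE1 lie, 5.27% (42 of 797) on chromosome 11 and 5.23% (23 of 440) on chromosome 15. It was 0.292% (3 of 1026) on chromosome 19 and 0 of 316 on chromosome 22, which allows up to 0.949%. Chromosome 20 had the highest share of H3K27me3-only ends (14.9%) and chromosome 11 the next (12.2%), where 317 ends held them. FGF3, among the highest-scoring H3K27me3-only genes, also lies on chromosome 11. Copy number was not measured and the H3K27me3 peaks were called without control. For these shares and scores, mark level and copy number thus cannot be told apart.

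The promoters in the RefSeq table were classed anew around their own start, with 300 bases each. The table matched 79.0% of the genes and 78.0% of the both-mark genes, which is under 80%, so as a check of the gene-end classes it is void and the values describe the matched promoters alone. Among 341 both-mark promoters the median was 29 CpG (quartiles 21 and 36), near the 27 of 9702 H3K4me3-only promoters, while 905 H3K27me3-only promoters had 6 (2 and 21) and 4152 with neither mark 5. At least 10 CpG, the dinucleotide CG read on either strand, stood in 95.3% of both-mark, 93.9% of H3K4me3-only, 38.8% of H3K27me3-only and 72.9% of all 15100 promoters. KCTD1 with 6 was an exception among the genes with long stretches, and PAX6 had 24, SSTR2 27, HOXA7 31 and NKX2-2 35 in the 300 bases.

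H3K27me3 lay on CpG-poor and CpG-rich promoters. The share of them with H3K4me3 rose with CpG number, as H3K4me3 did over all promoters. Of 397 H3K27me3 promoters with 0 to 4 CpG, 5 (1.26%) also had H3K4me3. The share was 6.36% of 173 with 5 to 9, 36.7% of 166 with 10 to 19, 51.2% of 203 with 20 to 29 and 52.1% of 307 with 30 or more. H3K4me3 itself rose over the same bins from 7.37% to 91.2% of all promoters. FGF3, with 26 CpG, was 1 of the CpG-rich promoters with H3K27me3 and no H3K4me3, and MUC12, with 8, was 1 of the CpG-poor ones.

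**Figure D5:**
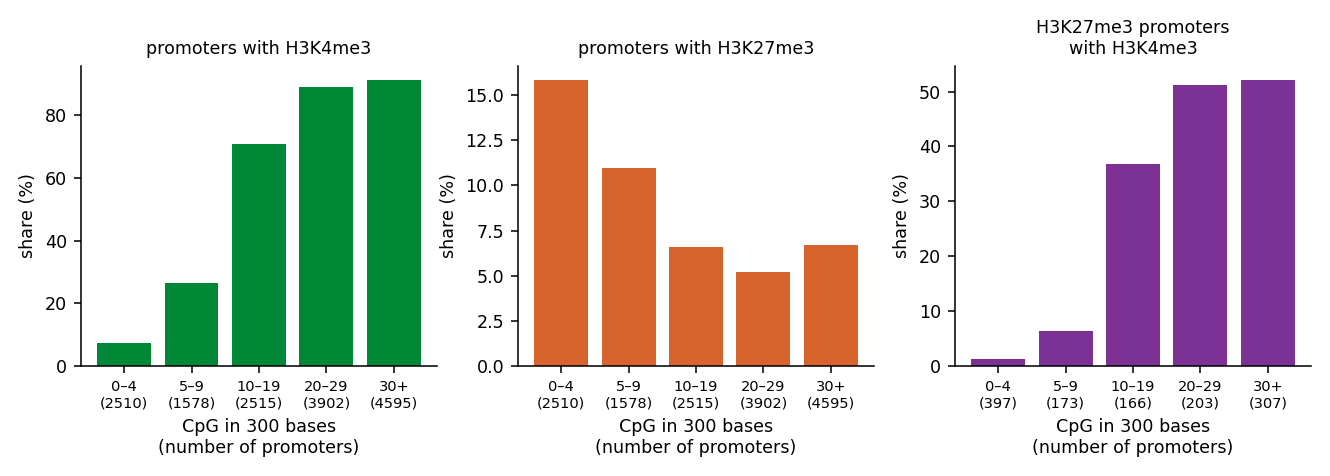
Share of promoters, in percent, with H3K4me3 (left), with H3K27me3 (middle), and of H3K27me3 promoters that also have H3K4me3 (right), against the number of CpG in 300 bases; numbers in brackets are the promoters in each bin. The last share goes from 1.26% at 0 to 4 CpG to 52.1% at 30 or more.

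Most of the CHLA10 both-mark ends had both marks in A673 as well. Of the 435, 296 (68.0%) did, 72 (16.6%) had H3K4me3 alone there, 46 (10.6%) H3K27me3 alone and 21 neither. PAX6, SSTR2, HOXA7, EVX1, LBX1 and TWIST2 had both marks in each line. NKX2-2, BARHL2 and PTGS2 had H3K4me3 alone in A673, and BDNF, BSX and FOXE1 had H3K27me3 alone. PCDH15 and WNT3 had neither mark there.

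The reverse share was smaller because A673 had more such ends. A673 had 1001 (2.62%), of which the 296 are 29.6%, and 482 of the rest had H3K4me3 alone in CHLA10 and 157 H3K27me3 alone. Over the 4 pairings, H3K27me3 was at 4.54% to 4.76% of H3K4me3 ends in CHLA10 and 8.14% to 9.35% in A673, and these ranges did not overlap. H3K27me3 peaks of a single library were at 3390 and 3409 gene ends in CHLA10 and at 3206 and 3867 in A673. The lines were grown in different media and their lists were filtered apart, so line, culture and list selection cannot be told apart.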

How the data were processed

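The authors deposited 1 peak list per library, called per sample. Per the submitters' processing notes, hg38 was the build; they also list bedtools, SEACR 1.2, MACS2 and Bowtie2 with no roles. By the peak names in the deposited lists, H3K4me3, H3K27ac, H3K4me1 and HOXD13 were narrow peaks called against IgG, and H3K27me3 broad peaks without control, none under 2000 bp. In the deposited lists each peak has the authors' fold enrichment (a ratio) and −log10 q, at least 2. Gaps in the peak numbers show that the lists are subsets, with 75.8% and 77.1% of the highest number for H3K4me3 and 18.2% and 19.9% for H3K27me3; the selection is not stated.

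Intervals were intersected with numpy 2.4.6 and pandas 2.3.3 under Python 3.11.15, checked on simulated peaks of known class. Gene boundaries were RefSeq's (GRCh38.p14); strand, where known, came from its promoter table. The members, gene lists and comparisons were chosen with earlier results of these data known. Named genes were, per list, up to 4 both-mark members with the longest 4-library stretch, the 10 longest and 5 shortest stretches, the 5 highest-scoring genes of each single-mark class, HOXD13 and its neighbours, EZH2, EED, SUZ12, GAPDH and ACTB. Further genes, named as members of a list or class, and the weak H3K4me3-only ends were chosen after their values were seen. No p-value was computed. Some members are not reported here.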

Additional observations from a re-analysis of the deposited data

How the results depend on the processing

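No paired analysis was possible because the results come from counts of called peaks and not from a test. Transcript starts from RefSeq, and all settings of the length ratio and the H3K27ac share, were added after seeing the data. H3K4me3-only ends stayed within 1.5 times of 12859 in all 15 alternatives run for them. The 435 both-mark ends became 255 with a 0.5 kb window, 689 with 2.5 kb, 26 with the 50% of peaks highest in q, 866 with presence in at least 1 replicate, 268 when the marks had to overlap each other in the window, and 658 with all annotated genes. Leaving out 1 library in turn gave 490 to 568. H3K4me3 peaks at both-mark ends had a median −log10 q of 12.7 and 11.0, against 31.2 and 28.4 over the lists. H3K27me3-only ends, 2228, fell to 898 at gene starts and 905 at RefSeq transcript starts, where far ends are not counted.

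The share of H3K4me3 ends with H3K27me3, 3.27%, was 2.01% with 0.5 kb, 4.67% with 2.5 kb, 2.71% with at least 200 bp of overlap, 0.255% with the upper 50%, 6.19% with at least 1 replicate, 3.85% with overlapping windows merged and 2.02% with overlapping marks, and 3.60% to 4.27% without 1 library. List members with both marks, 121, became 74 (0.5 kb), 10 (upper 50%), 222 (at least 1 replicate) and 79 (overlapping marks). Of 83 named both-mark genes, 60 stayed with 0.5 kb, 73 with 200 bp and 4 with the upper 50%.

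The H3K4me3 length ratio, a mean of 2.51 over the replicates, was 2.63 (0.5 kb), 2.31 (2.5 kb), 1.48 (upper 50%), 2.43 (at least 1 replicate), 2.44 (merged windows), 2.42 (overlapping marks) and 2.34 to 2.78 without 1 library. H3K27ac at both-mark ends, 0 over both replicates, was 1.52% with 2.5 kb and 0.577% with at least 1 replicate, and 0 to 0.450% without 1 library. The depth behind the peaks is unknown, so marks below the callers' limits are missed, and the cause of these shifts was not tested beyond the construction of each alternative.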

Other observations

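Most both-mark genes, 310 of 431, were in none of the gene lists. The genes named here are among those with the longest stretches in all 4 libraries and were chosen after their values were seen. CALCR, the calcitonin receptor gene, had H3K4me3 of 1363 and 1707 bp inside H3K27me3 of 10958 and 17295 bp. AVPR1A, a vasopressin receptor gene, had 1297 and 1315 bp inside 14971 and 9537 bp, and CNR1, a cannabinoid receptor gene, 1199 and 1137 bp inside 9669 and 14151 bp. DIO3, the deiodinase gene that inactivates thyroid hormone, had 1388 and 1456 bp inside 5258 and 5991 bp, at its far end.

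SNAP91, a clathrin adaptor gene, SYT10, a synaptotagmin gene, MDGA2, a synaptic adhesion gene, and SYNDIG1 had stretches of 1323, 1257, 1275 and 1246 bp. PTPRO, a receptor phosphatase gene, had 1275 bp and MARK1, a microtubule-regulating kinase gene, 1205 bp. HRK, a gene of the BCL2 family that promotes cell death, held 1367 bp, and PRKAA2, which encodes a catalytic subunit of the kinase AMPK, 1375 bp. CALCR, CNR1, SNAP91, HRK and PRKAA2 had both marks in A673 as well, and AVPR1A, MDGA2 and SYNDIG1 had H3K4me3 alone there. SYT10 had neither mark in A673. FOXL2NB, beside FOXL2, shared the peaks of that gene.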
